A study of Mus musculus with 14 samples.

Results

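Imprinted genes of fetal growth were followed in the epithelium of the developing mouse bladder and urethra. The 10 genes were Igf2, H19, Dlk1, Meg3, Peg3, Mest, Cdkn1c, Plagl1, Grb10 and Igf2r, taken by gene symbol out of the 55228 genes counted. They were chosen by name for their imprinting and their known part in growth, with earlier results of these data known. All 10 were expressed enough to be tested in every comparison. The series set out to find what separates the bladder and urethral epithelium while both form. RNA-seq was run on bladder epithelium at E18.5, where E counts embryonic days (3 libraries), urethral epithelium at E18.5 (3 libraries), bladder epithelium at E14.5 (4 libraries) and urethral epithelium at E14.5 (4 libraries). All embryos were wildtype, untreated females of the outbred CD-1 strain, and each library pooled the female embryos of a litter, which gave both tissues. The epithelium was freed with trypsin and pulled off the mesenchyme with forceps, so a library can hold cells left from the underlying layer.

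Genomic imprinting silences either the maternal or the paternal copy of a gene through DNA methylation set in the germ line. In mouse embryos the RNA of Igf2, Dlk1, Peg3, Mest and Plagl1 comes from the paternal copy, and that of H19, Meg3, Cdkn1c, Grb10 and Igf2r mainly from the maternal copy. Paternally expressed genes tend to promote fetal growth and maternally expressed ones to restrain it, and many of them are turned down together as tissues mature after birth. These data give the summed RNA of both copies, and neither the allele of origin nor DNA methylation was measured.

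Promoter sequence is shown for Plagl1, Dlk1, Mest and Peg3, the 4 paternally expressed genes that were higher in bladder than in urethra at E18.5, described below. The sequences are from RefSeq (GRCm38.p6), read 5′ to 3′ on the strand of the gene, within the 250 bases before a transcription start, and cut to the longest stretch with no annotated exon. Capitals mark CpG dinucleotides, the kind of site where DNA methylation is set. Whether the sites shown are methylated, or belong to an imprinting control region, was not examined.
Plagl1, chr10:13090582-13090690, plus strand: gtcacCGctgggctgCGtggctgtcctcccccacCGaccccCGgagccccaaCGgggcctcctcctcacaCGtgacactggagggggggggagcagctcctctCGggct
Dlk1, chr12:109452573-109452822, plus strand: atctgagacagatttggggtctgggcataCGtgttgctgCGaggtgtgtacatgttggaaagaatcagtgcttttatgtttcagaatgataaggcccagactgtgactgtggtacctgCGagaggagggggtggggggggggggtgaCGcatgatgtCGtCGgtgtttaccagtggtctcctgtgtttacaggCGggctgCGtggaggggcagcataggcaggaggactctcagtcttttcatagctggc
Mest, chr6:30737800-30738049, plus strand: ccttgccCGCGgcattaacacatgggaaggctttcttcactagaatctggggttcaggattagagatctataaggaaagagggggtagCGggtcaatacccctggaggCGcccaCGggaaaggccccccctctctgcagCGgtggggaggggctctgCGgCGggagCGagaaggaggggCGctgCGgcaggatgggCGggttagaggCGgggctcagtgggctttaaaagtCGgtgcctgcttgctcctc
Peg3, chr7:6730432-6730577, minus strand: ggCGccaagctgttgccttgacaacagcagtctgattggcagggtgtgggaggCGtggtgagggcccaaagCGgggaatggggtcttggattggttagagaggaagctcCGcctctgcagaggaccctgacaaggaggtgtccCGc
Across these stretches CpG density was 6.42 per 100 bases for Plagl1, 5.6 for Mest, 3.42 for Peg3 and 3.2 for Dlk1. Where a gene had several windows, a window with the most CpG was taken. For Mest it held 14, and another window held 7. The cut left 7 of 19 CpG for Plagl1 and 5 of 8 for Peg3, so the densities come from unequal stretches. The promoter table held 15 such windows, before any cut, for 8 of the 10 genes, with 0 to 40 CpG each and a median of 10, against a median of 6 and quartiles of 2 and 16 over all 32851 windows of that length. Promoters of H19 and Cdkn1c are not shown. H19 carries the microRNA gene Mir675 in an exon, and its mature products are given here because that gene overlaps the counted exons of H19; capitals mark the seed, bases 2 to 8.
mmu-miR-675-5p, chr7:142577112-142577133, minus strand: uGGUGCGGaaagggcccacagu
mmu-miR-675-3p, chr7:142577078-142577099, minus strand: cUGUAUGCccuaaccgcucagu
No read was assigned to Mir675 in any library, and a poly(A) RNA library does not measure mature microRNAs.

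Library totals ran from 21101269 to 36810672 counts. Levels are CPM, counts scaled to library size after trimmed mean of M values normalization, given below for the libraries in the order of their replicate numbers. Markers of epithelium and of mesenchyme were present in every group, and none of the 15 genes of either list was at 0 in a whole group. The summed mesenchyme list stood at 21133 to 32749 CPM in E18.5 bladder, 5133 to 6289.9 CPM in E18.5 urethra, 1261 to 5173 CPM in E14.5 bladder and 3465 to 7569.8 CPM in E14.5 urethra. The summed epithelium list stood at 12246 to 16957, 11379 to 13596, 10986 to 12787 and 4301 to 10443 CPM in the same groups. In bulk RNA, fewer cells of a type and less RNA per cell cannot be told apart, and this holds for each difference below.

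Igf2 has a limit of its own. The annotated read-through gene Gm49394 lies on the same strand and shares 3596 of the 5723 exon bases of Igf2 (62.8%), which leaves 2127 bases to Igf2 alone. Gm49394 itself had 0 to 16 counts in a library and Igf2 had 627 to 3771. How reads that fit both genes were counted is not given in the sources used here. Elsewhere, all 216 exon bases of Snurf are shared with Snrpn on the same strand. Snurf had 0 counts in every library and Snrpn 177 to 575, so Igf2 may likewise lack reads from its shared bases. Igf2 is therefore compared between libraries, which share this limit, and its level is not ranked against other genes. Whether the use of its exons differed between libraries was not tested. Smaller overlaps touched Mest, which shares 912 opposite-strand bases with Copg2 (2485 to 7190 counts), and Cdkn1c, which shares 625 with Gm44732 (47 to 165 counts). The kit kept strand, but the strand setting of the counting is not given in the sources used here.

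In E18.5 bladder, 5 of the 10 genes were higher than in E18.5 urethra and 1 was lower at an adjusted p under 0.05 by edgeR. The 5 were Plagl1, Dlk1, Mest, Peg3 and H19, and the 1 was the growth-restraining Cdkn1c. Over all 17513 genes tested, 37.9% were called, 19.3% higher and 18.6% lower. The CPM of bladder and urethra did not overlap for 7 of the 10, and for 51.1% of all genes. The median log2 fold change of the 10 was 0.43, and that of all genes was -0.03. At E14.5, 0 of the 10 were higher in bladder and 3, Cdkn1c, Igf2 and Grb10, were lower, while 44.0% of 16697 genes were called, 23.1% higher and 20.9% lower. The tissues did not overlap for the same 3, and for 40.4% of all genes. The median of the 10 was -0.62 and that of all genes -0.03. At an unadjusted p under 0.05 no gene of the 10 was higher in bladder at E14.5 by edgeR, and none was called higher by DESeq2.

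Between the stages, 3 of the 10 genes were higher in E18.5 than in E14.5 bladder (Dlk1, Plagl1 and Meg3) and 2 were lower (H19 and Grb10). Of 18286 genes, 40.3% were called in that comparison, 19.9% higher and 20.4% lower. In urethra 0 of the 10 were higher at E18.5 and 4 were lower (Igf2, Grb10, H19 and Peg3), where 33.0% of all genes were called, 17.3% higher and 15.7% lower. Among the genes of the 10 that stood higher in E18.5 urethra, 1, Meg3, had an unadjusted p under 0.05 by edgeR (0.0236), and DESeq2 called it (adjusted p = 0.0322). The stages did not overlap for 5 of the 10 in bladder, beside 46.2% of all genes, and for 4 in urethra, beside 38.5%. The median log2 fold change of the 10 was 0.30 in bladder and -0.70 in urethra, beside 0 for all genes in both. H19 and Grb10 were thus lower at E18.5 in both tissues.

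The bladder minus urethra difference itself differed between the stages for 4 of the 10 genes, Plagl1, Igf2, Peg3 and Dlk1, each shifted toward bladder at E18.5. For this interaction 22.9% of 18286 genes were called, 12.2% toward bladder and 10.7% toward urethra. Without E18.5 bladder replicate 1 the count was 1, and it was 2 without E18.5 bladder replicate 2 or E18.5 urethra replicate 1. All 4 are paternally expressed. No maternally expressed gene of the 10 was called, and the smallest unadjusted p among these was 0.0667, for Grb10, by edgeR. Outside the 10, 3 neighbours in the imprinted domains were called toward bladder and 2 toward urethra. The 3 include Zim1 beside Peg3, which is maternally expressed. Whether the paternally and maternally expressed genes differ as groups was not tested. The comparisons share libraries, so their counts are not independent of one another.

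**Figure D1:**
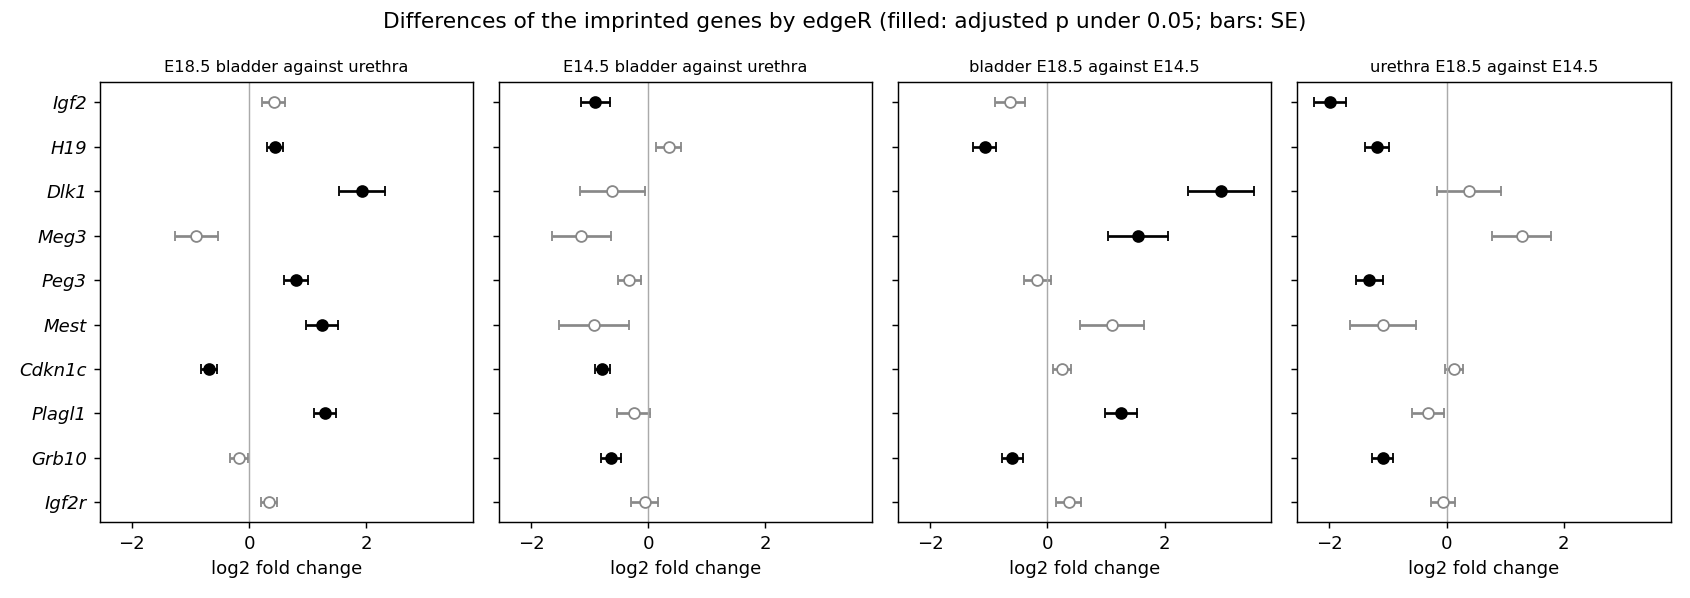
Log2 fold change of each of the 10 genes (points) with its SE (bars) by edgeR in 4 comparisons, with filled points for an adjusted p under 0.05. Dlk1 stands at 1.93 and Plagl1 at 1.30 in E18.5 bladder against urethra, and Igf2 at -1.99 in urethra at E18.5 against E14.5.

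Igf2 (chromosome 7, 142650766 to 142666816, minus strand) encodes insulin-like growth factor 2, the main growth factor ligand of the mouse fetus. Its level was 56.9, 44.4 and 30.9 CPM in E18.5 bladder and 28.3, 33.3 and 32.9 CPM in E18.5 urethra. At E14.5 it was 40.8, 62.9, 96.2 and 75.2 CPM in bladder and 124, 118, 151 and 108 CPM in urethra. All 4 E14.5 urethral libraries lay above every other library. Igf2 fell in urethra, with 31.5 ± 2.76 CPM at E18.5 against 125 ± 18.7 CPM at E14.5 (SD, n = 3 and 4), a log2 fold change of -1.99 (SE 0.27, edgeR adjusted p = 0.000293). In bladder the stages overlapped, and the log2 fold change of -0.64 (SE 0.25) did not pass (adjusted p = 0.059), though it passed without E14.5 bladder replicate 1 (0.00842) or E18.5 bladder replicate 1 (0.026). At E14.5 Igf2 was lower in bladder than in urethra with no overlap (-0.90, SE 0.24, adjusted p = 0.0171). At E18.5 bladder and urethra overlapped (0.42, SE 0.20, adjusted p = 0.131), and the difference passed without bladder replicate 3 (0.0159). The interaction was 1.35 (SE 0.35, adjusted p = 0.0171, and 0.0516 without E18.5 bladder replicate 1).

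Igf2r (chromosome 17, 12682406 to 12769664, minus strand) encodes the receptor that takes up IGF2 for breakdown and so limits its action. It stood at 517, 517 and 440.1 CPM in E18.5 bladder and 393, 319 and 409 CPM in E18.5 urethra. At E14.5 it stood at 354, 341, 414 and 417 CPM in bladder and 343, 313, 603 and 298 CPM in urethra, where replicate 3 was far above the other libraries. Igf2r did not pass in any of the 5 comparisons. The nearest to the threshold was E18.5, where bladder lay above urethra without overlap (0.34, SE 0.13, adjusted p = 0.0708). In bladder between the stages it stood at 0.36 (SE 0.21, adjusted p = 0.183, and 0.0157 without E14.5 urethra replicate 3, whose spread enters that fit).

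H19 (chromosome 7, 142575529 to 142578143, minus strand) encodes a noncoding RNA that shares its enhancers and imprinting control region with Igf2 and restrains growth. It was the most abundant of the 10 genes in every library. H19 had 2732, 2571 and 2031 CPM in E18.5 bladder, 1639, 1599 and 1958 CPM in E18.5 urethra, 3145, 5667, 6320.2 and 5372 CPM in E14.5 bladder, and 4305, 3837, 4242 and 3416 CPM in E14.5 urethra. Ranked by counts, it was 1st in 3 of the 4 E14.5 bladder libraries, and it took 0.165 to 0.623% of all counts over the 14 libraries. Every E18.5 library lay below every E14.5 library. H19 fell in bladder by 1.07 on the log2 scale (SE 0.20, adjusted p = 0.00121) and in urethra by 1.19 (SE 0.21, adjusted p = 0.00124). At E18.5 it was 1.35-fold higher in bladder than in urethra (2444 ± 367 and 1732 ± 197 CPM, n = 3 each, adjusted p = 0.0395). The difference missed the threshold when bladder replicate 1 (adjusted p = 0.096) or 2 (0.0994), or urethra replicate 1 (0.144) or 2 (0.0935), was left out, and in a fit of all 14 libraries (0.50, adjusted p = 0.0892). The same was true by edgeR with the replicate number as a block (0.44, adjusted p = 0.107). At E14.5 bladder and urethra overlapped (0.35, SE 0.21, adjusted p = 0.209), with bladder replicate 1 the lowest of the 8, and without it the difference passed (0.50, adjusted p = 0.0112).

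**Figure D2:**
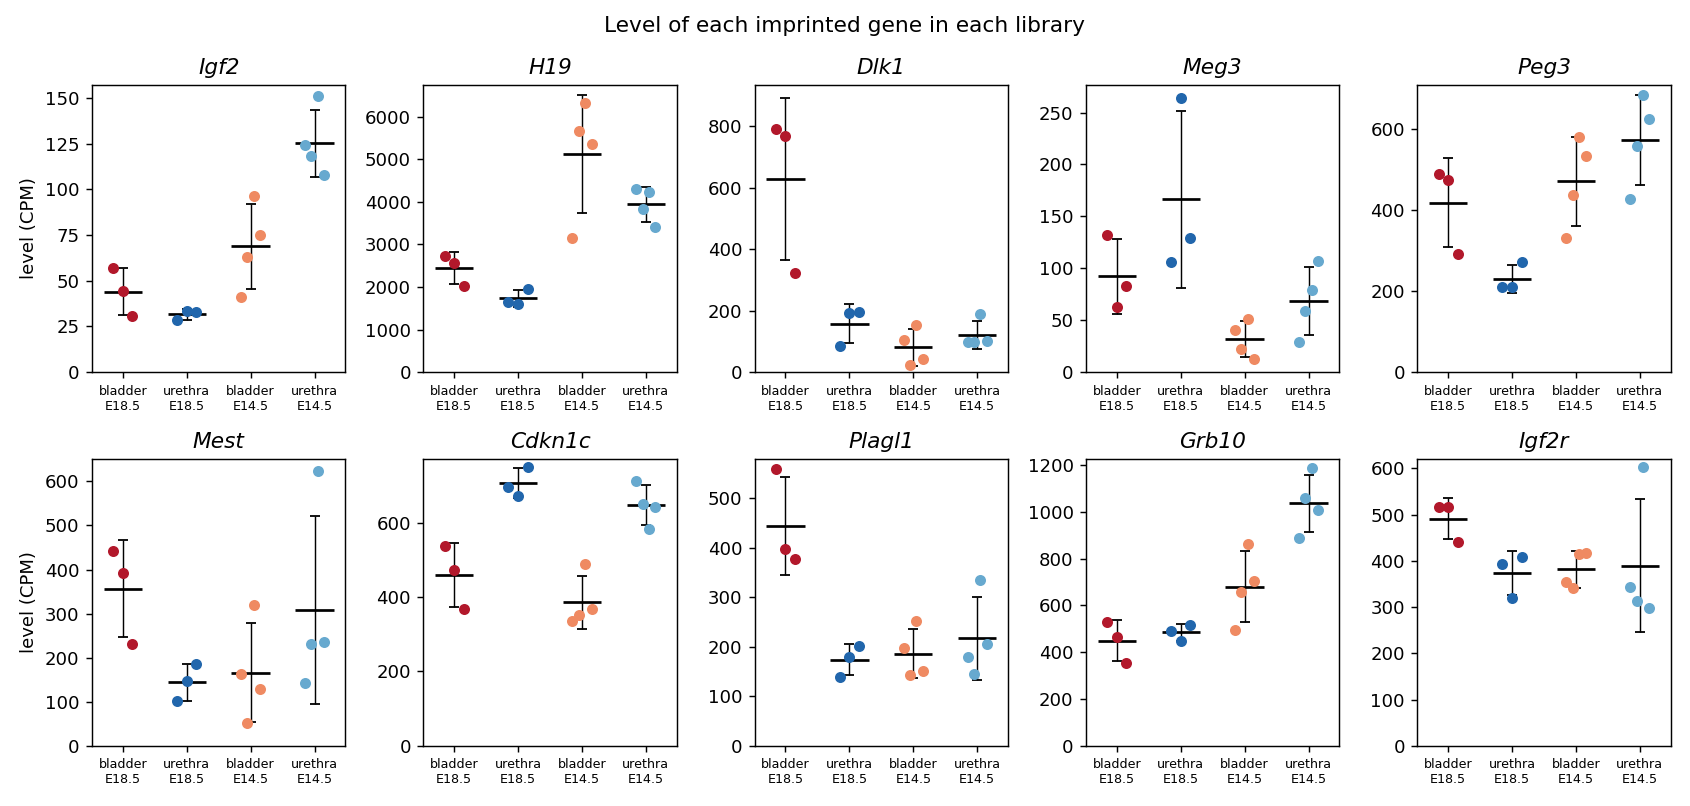
Level in CPM of each of the 10 genes in each library (points), with the mean (line) and SD (bars) of each group, n = 3 at E18.5 and 4 at E14.5. Dlk1 and Plagl1 stand out in E18.5 bladder, Cdkn1c is lower in bladder than in urethra at both stages, and H19 is lower in E18.5 than in E14.5 libraries.

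Dlk1 (chromosome 12, 109452823 to 109463336, plus strand) encodes a membrane and secreted Notch-family ligand of fetal mesenchymal and endocrine progenitors. It stood at 790.5, 768 and 323 CPM in E18.5 bladder and 85.6, 191 and 196 CPM in E18.5 urethra. At E14.5 it stood at 105, 22.6, 154 and 41.4 CPM in bladder and 97.9, 96.4, 189 and 100.3 CPM in urethra. The E18.5 bladder libraries lay above all others, and relative to its mean the spread was widest in E14.5 bladder (80.8 ± 60.3 CPM). Dlk1 was 7.77-fold higher in E18.5 than in E14.5 bladder (log2 fold change 2.96, SE 0.57, adjusted p = 0.00127) and 3.80-fold higher in bladder than in urethra at E18.5 (1.93, SE 0.39, adjusted p = 0.0055). It did not pass between the tissues at E14.5 (-0.61, SE 0.55, adjusted p = 0.393) or between the stages in urethra (0.38, SE 0.55, adjusted p = 0.627). The interaction of 2.57 (SE 0.80, adjusted p = 0.0343) was lost without E18.5 bladder replicate 1 (0.0772) or 2 (0.0688), E18.5 urethra replicate 1 (0.0869) or 2 (0.0532), E14.5 bladder replicate 4 (0.0624) or E14.5 urethra replicate 3 (0.0644).

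Meg3 (chromosome 12, 109541001 to 109571726, plus strand), the maternally expressed noncoding RNA of the same domain, did not follow Dlk1 between the tissues. Meg3 had 132, 62.2 and 82.6 CPM in E18.5 bladder and 106, 264 and 129 CPM in E18.5 urethra, and 40.9, 22.0, 51.2 and 12.6 CPM in E14.5 bladder and 28.6, 58.6, 79.5 and 107 CPM in E14.5 urethra. Both tissue comparisons overlapped and neither passed (E18.5 -0.90, SE 0.37, adjusted p = 0.0878; E14.5 -1.14, SE 0.50, adjusted p = 0.0953). They passed without E18.5 bladder replicate 1 (0.0431) and without E14.5 urethra replicate 1 (0.0332). Meg3 was 2.92-fold higher in E18.5 than in E14.5 bladder with no overlap (adjusted p = 0.0264), a call lost without E14.5 bladder replicate 2 (0.0712) or 4 (0.0619) or E18.5 bladder replicate 1 (0.119). In urethra it stood 2.43-fold higher (adjusted p = 0.0652) and passed without E14.5 urethra replicate 4 (0.0466) or E14.5 bladder replicate 4 (0.0458). The difference between Dlk1 and Meg3 in their tissue contrast was not tested.

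Plagl1 (chromosome 10, 13060504 to 13131694, plus strand) encodes a zinc finger transcription factor that regulates other imprinted genes and the cell cycle. It stood at 559, 398 and 377 CPM in E18.5 bladder and 139.8, 179.8 and 202 CPM in E18.5 urethra. At E14.5 it stood at 197, 143, 252 and 152 CPM in bladder and 179.7, 146, 336 and 206 CPM in urethra. All 3 E18.5 bladder libraries lay above the rest. Plagl1 was 2.46-fold higher in bladder than in urethra at E18.5 (445 ± 99.3 and 174 ± 31.6 CPM, adjusted p = 0.00107) and 2.39-fold higher in E18.5 than in E14.5 bladder (adjusted p = 0.00256). Both calls, and the interaction of 1.58 (SE 0.39, adjusted p = 0.0129), held without each library in turn. Urethral stages overlapped (-0.32, SE 0.27, adjusted p = 0.404), as did the E14.5 tissues (-0.25, SE 0.28, adjusted p = 0.49). Without E14.5 urethra replicate 3 these came to 0.00 and 0.05.

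Peg3 (chromosome 7, 6703892 to 6730431, minus strand) encodes a Krüppel-type zinc finger protein that is needed for normal fetal growth and maternal behaviour. It had 489, 474 and 291 CPM in E18.5 bladder and 209.8, 209.9 and 271 CPM in E18.5 urethra. At E14.5 it had 332, 438, 580.5 and 534 CPM in bladder and 427, 558, 685 and 625 CPM in urethra. The 3 E18.5 urethral libraries were the lowest of the 14. Peg3 fell in urethra between the stages by 1.32 on the log2 scale (SE 0.23, adjusted p = 0.00138), while bladder stages overlapped (-0.17, SE 0.23, adjusted p = 0.579, and 0.02 without E18.5 bladder replicate 3). At E18.5 it was 1.74-fold higher in bladder than in urethra (adjusted p = 0.014), a call lost without urethra replicate 1 (0.057) or 2 (0.0523). Its interaction of 1.14 (SE 0.32, adjusted p = 0.0219) was lost without E18.5 bladder replicate 1 (0.0632) or 2 (0.0556) or E18.5 urethra replicate 1 (0.0556). The E14.5 tissues overlapped (-0.32, SE 0.20, adjusted p = 0.235).

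Mest (chromosome 6, 30723547 to 30748465, plus strand) encodes a membrane hydrolase-like protein of embryonic mesoderm and of growing fat. Its level was 443, 393 and 232 CPM in E18.5 bladder and 101, 147 and 185 CPM in E18.5 urethra. At E14.5 it was 162, 52.0, 319.8 and 129 CPM in bladder and 143, 231, 623 and 236 CPM in urethra, with urethra replicate 3 the highest of the 14 libraries. Mest was 2.36-fold higher in bladder than in urethra at E18.5 with no overlap (log2 fold change 1.24, SE 0.27, adjusted p = 0.00755), but not when all 14 libraries shared 1 fit (1.30, adjusted p = 0.109). It did not pass at E14.5 (-0.93, SE 0.60, adjusted p = 0.233), in bladder between the stages (1.10, SE 0.54, adjusted p = 0.125), in urethra (-1.09, SE 0.56, adjusted p = 0.154) or for the interaction (4.59-fold toward bladder at E18.5, adjusted p = 0.0597). Without E14.5 bladder replicate 3 the bladder stages (adjusted p = 0.026) and the interaction (0.0163) passed, and without E14.5 urethra replicate 1 the interaction passed (0.0269).

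Cdkn1c (chromosome 7, 143458339 to 143461050, minus strand) encodes p57, a cyclin-dependent kinase inhibitor that stops the cell cycle as cells differentiate. It stood at 538, 474 and 368 CPM in E18.5 bladder, against 697, 673 and 751 CPM in E18.5 urethra. At E14.5 it stood at 335, 351, 490.3 and 367 CPM in bladder, against 713, 652, 583 and 644 CPM in urethra. Every bladder library lay below every urethral library. Cdkn1c was lower in bladder at E18.5 (log2 fold change -0.68, SE 0.14, adjusted p = 0.00624) and at E14.5 (-0.78, SE 0.13, adjusted p = 0.00265), and both calls held without each library in turn. It was the only gene of the 10 called between the tissues at both stages. The stages did not pass in bladder (0.25, SE 0.15, adjusted p = 0.189) or urethra (0.13, SE 0.15, adjusted p = 0.545), though bladder passed without E14.5 bladder replicate 3 (0.0301) or E18.5 bladder replicate 3 (0.0488).

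Grb10 (chromosome 11, 11930508 to 12038683, minus strand) encodes an adaptor protein that binds the insulin and IGF1 receptors and restrains growth. It had 529, 464 and 355 CPM in E18.5 bladder and 492, 447 and 517 CPM in E18.5 urethra. At E14.5 it had 494, 658, 863 and 704 CPM in bladder and 890.3, 1059, 1186 and 1009 CPM in urethra. The E14.5 urethral libraries lay above all others, the same place that Igf2 took. Grb10 was lower in E18.5 than in E14.5 urethra by 2.14-fold (485 ± 35.7 and 1036 ± 123 CPM, adjusted p = 0.000964) and lower in E14.5 bladder than in E14.5 urethra (-0.64, SE 0.17, adjusted p = 0.0177). In bladder it was 1.51-fold lower at E18.5 (adjusted p = 0.0167, and 0.0663 without E18.5 bladder replicate 3), with 1 E14.5 library inside the range of the E18.5 ones. The E18.5 tissues overlapped (-0.17, SE 0.15, adjusted p = 0.403).

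Levels of the tested mesenchyme markers moved with several of these genes. Mesenchyme genes were higher in E18.5 bladder than in E18.5 urethra (12 of 15 passed, median log2 fold change 1.96) and than in E14.5 bladder (12 of 15, median 2.80). At E14.5, 6 of 15 were lower in bladder than in urethra (median -1.03), and in urethra 1 was higher and 3 were lower at E18.5. Smooth muscle, endothelial and immune lists also stood higher in E18.5 bladder than in E18.5 urethra (10 of 10, 10 of 10 and 9 of 10 passed). All 10 genes of each of these lists were higher in E18.5 than in E14.5 bladder too (median log2 fold changes 5.18, 2.3 and 3.48). Epithelium genes were higher in E14.5 bladder than in E14.5 urethra (11 of 15 passed, 1 lower). At E18.5, 3 of 15 were higher and 6 lower in bladder than in urethra (median -0.33). In bladder 2 were higher and 5 lower at E18.5 than at E14.5 (median -0.44). For the interaction 0 were higher and 9 lower. In urethra, 11 of 15 epithelium, 6 of 10 smooth muscle and 9 of 10 skeletal muscle genes were higher at E18.5 than at E14.5. Within the 4 groups the libraries make 18 pairs. Mest was ordered like the summed mesenchyme list in 18 of them, Dlk1 in 17, Plagl1 in 17, Peg3 in 16, Meg3 in 14, Grb10 in 14, Igf2 in 12, Igf2r in 11, H19 in 10 and Cdkn1c in 9. The median over all genes tested was 9, with quartiles of 7 and 11.

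**Figure D3:**
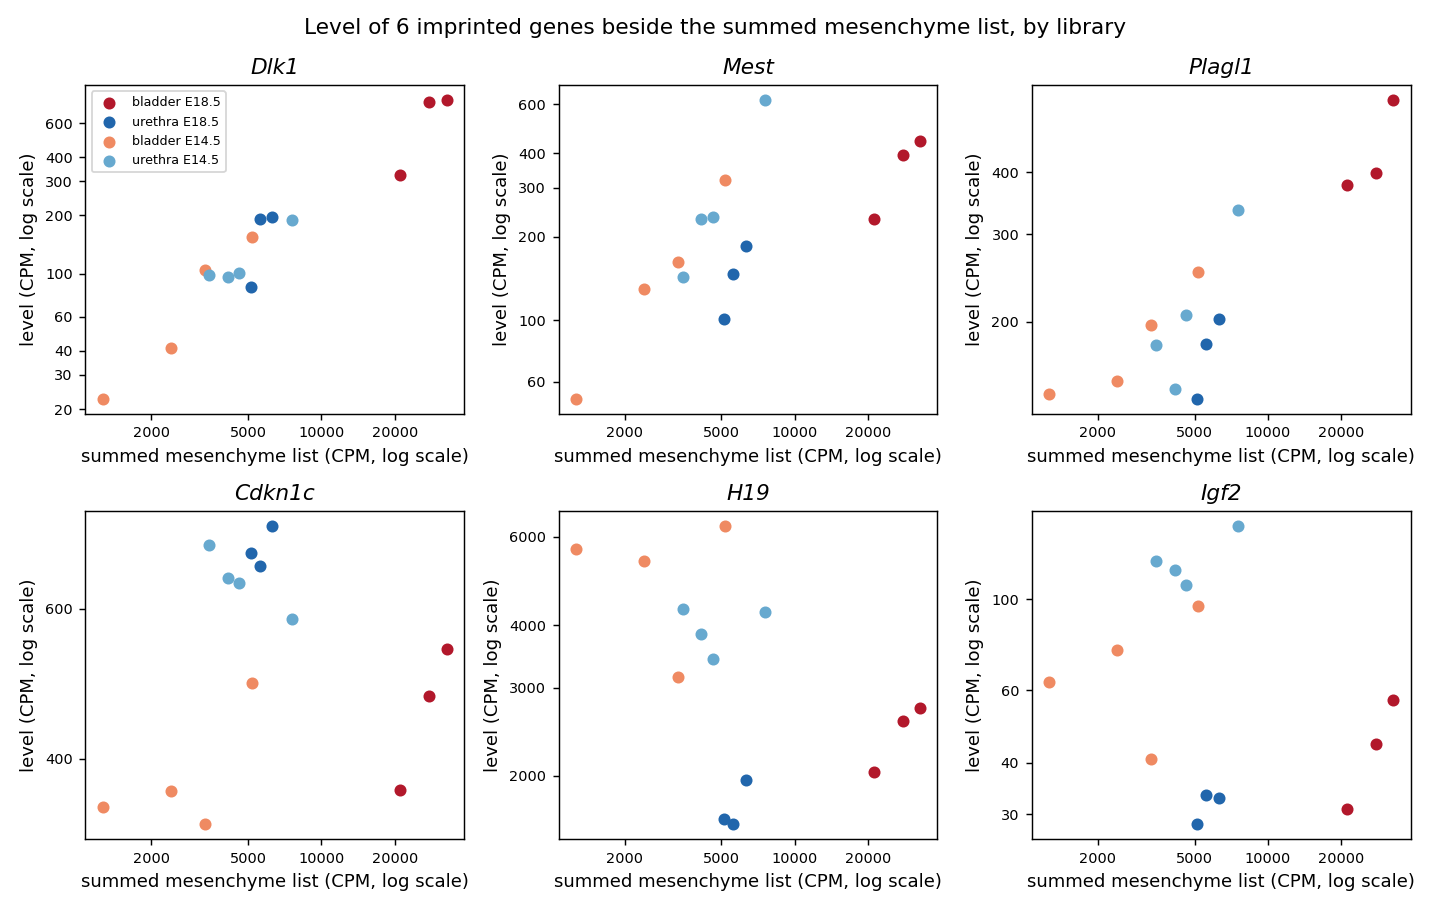
Level in CPM of 6 of the genes against the summed level of the 15 mesenchyme genes in each of the 14 libraries, both on log axes. Dlk1 climbs with the sum across libraries of all 4 groups, from 22.6 CPM at a sum of 1261 CPM to 790.5 CPM at 32749 CPM, whereas Cdkn1c separates by tissue.

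A mesenchyme score, the mean log2 CPM of that list, was then added as a covariate to the fit of all 14 libraries. The score of the 3 E18.5 bladder libraries (8.23 to 8.99) lay above that of every other library (4.75 to 7.75), so for E18.5 bladder group and score largely cannot be told apart. With it the E18.5 tissue difference of Dlk1 was -0.02 (adjusted p = 0.976), that of Mest -0.73 (0.112), that of Plagl1 0.60 (0.148), that of Peg3 0.43 (0.349) and that of H19 0.48 (0.288), and none of the 5 passed. In the same fit without the score H19 (0.50, adjusted p = 0.0892) and Mest (1.30, 0.109) had not passed either, and H19 hardly moved with it. Meg3 passed as lower in E18.5 bladder (-2.09, adjusted p = 0.0222). Cdkn1c was still lower in bladder at E18.5 (-0.84, adjusted p = 0.0141) and at E14.5 (-0.59, adjusted p = 0.0273). At E14.5 Igf2 (-0.58, adjusted p = 0.185) and Grb10 (-0.37, adjusted p = 0.232) did not pass.

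Between the stages in urethra, where the range of the score overlapped, the 4 calls still passed. Igf2 (-1.97, adjusted p = 0.000189), H19 (-1.19, 0.00111), Peg3 (-1.28, 0.000751) and Grb10 (-1.07, 0.000552) were as large as without the score, and Mest (-0.81, 0.00994) passed as lower and Meg3 (1.43, 0.0118) as higher. In bladder Dlk1 (-0.20, adjusted p = 0.874), Plagl1 (-0.03, 0.975), Meg3 (-0.55, 0.746), H19 (-1.10, 0.155) and Grb10 (-1.12, 0.0894) did not pass, with H19 close to its size without the score, and Mest passed as lower (-2.18, 0.0198). For the interaction no gene of the 10 passed (smallest adjusted p = 0.371, for Mest), and 55 of all genes did. The part of the other cell types in these differences was not tested.

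**Figure D4:**
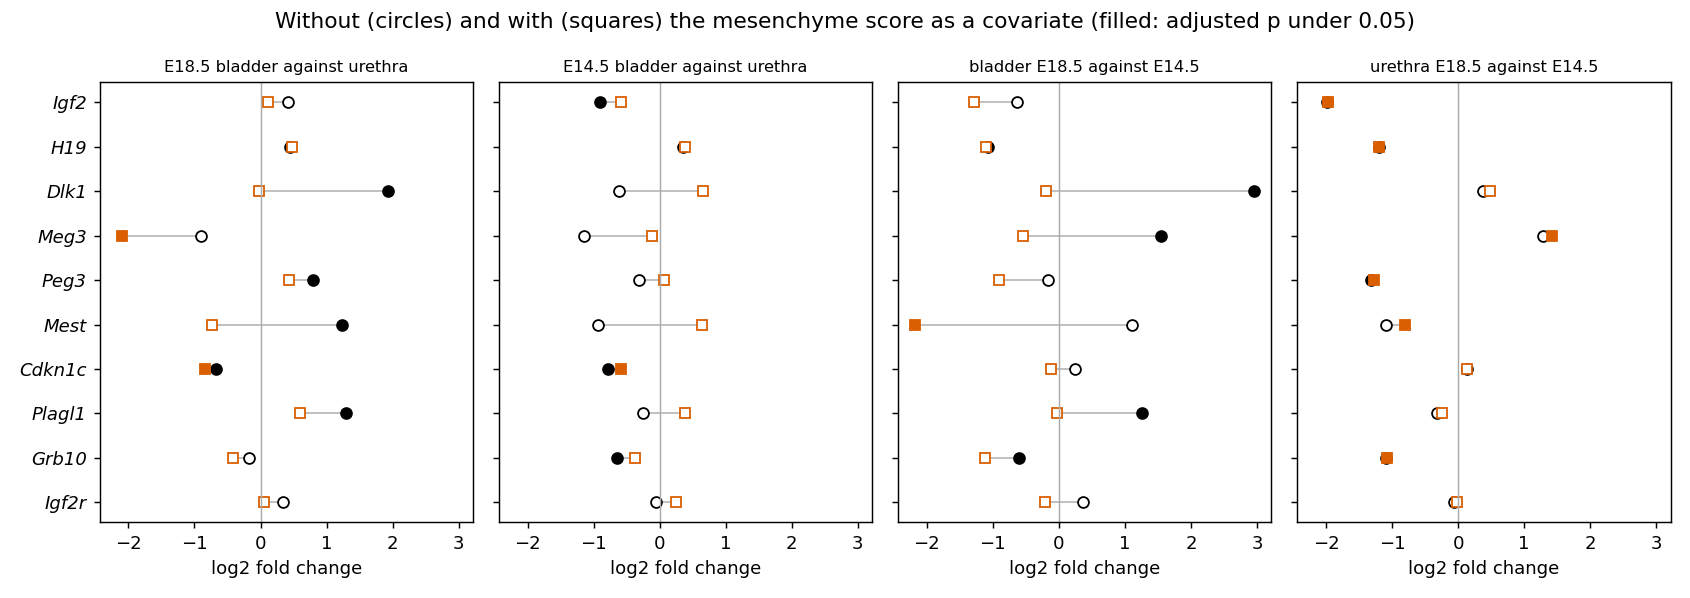
Log2 fold change of each of the 10 genes without (circles) and with (squares) the mesenchyme score as a covariate, filled for an adjusted p under 0.05, in 4 comparisons. In the tissue comparisons the circles come from fits within a stage and the squares from the fit of all 14 libraries. H19 and Mest at E18.5 missed the threshold in the latter fit also without the score. Dlk1 moves to -0.02 in E18.5 bladder against urethra while Cdkn1c goes to -0.84 and still passes, and the values in urethra between the stages hardly move.

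Ordered by level per kb of exon not shared with another gene on the strand, and leaving Igf2 aside, H19 led in all 4 groups and Cdkn1c came after it. H19 had 1029 ± 155 CPM per kb in E18.5 bladder, 729 ± 82.8 in E18.5 urethra, 2157 ± 580.3 in E14.5 bladder and 1662 ± 173 in E14.5 urethra, and Cdkn1c 226 ± 42.0, 347 ± 19.6, 189 ± 34.8 and 318 ± 26.1 CPM per kb in the same groups. These 2 were apart from each other and from the rest beyond their SD. In E18.5 bladder Dlk1 (111 ± 46.6 CPM per kb) and Mest (90.2 ± 28.0) came next and did not differ beyond their spread. Plagl1 (56.9 ± 12.7), Igf2r (52.8 ± 4.75) and Grb10 (49.4 ± 9.67) came after them and did not differ beyond theirs. The interval of Plagl1 also met those of Dlk1 and Mest. In the other 3 groups Grb10 came after Cdkn1c, with 53.4 ± 3.92 CPM per kb in E18.5 urethra, 74.8 ± 16.7 in E14.5 bladder and 114 ± 13.5 in E14.5 urethra. At E14.5 the interval of Grb10 met that of Mest in both tissues (42.0 ± 28.5 in bladder and 78.1 ± 54.2 in urethra). Meg3, whose annotated exons are the longest of the 10, was lowest in all 4 groups, at 1.78 to 9.34 CPM per kb.

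Genes with a profile like these were sought over the 14 libraries as the smallest root mean square difference of centred log2 CPM among 18276 other genes. Igf2 was nearest to Suv39h2 (0.28), which encodes a histone H3 lysine 9 methyltransferase, Skp2 (0.31), a ubiquitin ligase subunit of the cell cycle, and Skida1 (0.33). Dlk1 was nearest to Loxl1 (0.27), a crosslinker of elastic fibres, Rhoj (0.29), a small GTPase, and Trpv2 (0.30), a cation channel. Cdkn1c was nearest to Gm7694 (0.12), Zfp712 (0.15) and Zbtb1 (0.16). Grb10 lay nearest to Bahcc1 (0.14), Zcchc3 (0.14) and the TGF-beta receptor gene Tgfbr1 (0.15), and Igf2r to Wwc2 (0.11), Sec23a (0.17) and Calm3 (0.17). Among the 10 themselves the closest were Igf2 and Grb10 (0.35), Peg3 and Grb10 (0.36) and H19 and Peg3 (0.38). Out of 18285 genes, Grb10 was 7th nearest to Igf2, while Igf2 was 788th nearest to Grb10. Mest was 890th nearest to Dlk1, Plagl1 5622nd to Igf2r and Igf2r 5903rd to Cdkn1c. Cdkn1c lay 0.53 from Igf2r, beside a root mean square of 0.4 for its own centred profile.

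Neighbours within the imprinted domains were read alongside. In the Dlk1-Meg3 domain, 3 of 5 tested partners were higher in E18.5 than in E14.5 bladder, the retrotransposon-like gene Rtl1 (3.48, adjusted p = 0.000336) and the noncoding RNAs Rian (1.75, 0.00135) and Mirg (1.40, 0.0313). Mirg lost its call without E14.5 bladder replicate 1 (0.062), 2 (0.079) or 4 (0.0783) or E18.5 bladder replicate 1 (0.152), and with the mesenchyme score none of the 3 passed (smallest adjusted p = 0.597, for Rtl1). Rtl1, which like Dlk1 is paternally expressed, was the 1 of the 5 that was higher in bladder than in urethra at E18.5 (20.3 ± 4.30 and 3.52 ± 1.53 CPM, adjusted p = 0.000883), and with the score it did not pass (0.93, adjusted p = 0.244). Beside Peg3, Zim1 was higher in E18.5 bladder than in E18.5 urethra (1.57, adjusted p = 0.00236) and than in E14.5 bladder (1.58, 0.00149). With the score Zim1 passed in neither (1.07, adjusted p = 0.0951, and 0.60, 0.631). Igf2os, an antisense transcript of the Igf2 locus, was lower at E18.5 in bladder (-1.82, adjusted p = 0.00142) and in urethra (-1.44, 0.00747), and it shares 98 opposite-strand bases with Igf2. With the score the bladder value of Igf2os did not pass (-2.06, adjusted p = 0.122) and the urethral one did (-1.43, 0.00712). Airn, the noncoding RNA that silences paternal Igf2r, was lower in bladder than in urethra at E18.5 (adjusted p = 0.0168, but 0.0673 without bladder replicate 2 and 0.0631 without urethra replicate 1). It stood at 10.7 ± 1.24 CPM in E18.5 bladder, 16.0 ± 1.04 in E18.5 urethra, 6.99 ± 0.603 in E14.5 bladder and 10.7 ± 2.62 in E14.5 urethra.

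Of 20 genes of the IGF pathway, 18 were tested at E14.5, and there 3 were higher and 11 lower in bladder than in urethra, as Igf2 was. The secreted protein gene Stc1 (-3.45, adjusted p = 0.000281), the receptor substrate gene Irs1 (-0.95, 0.000328) and the IGF-binding protein gene Igfbp2 (-2.88, 0.000528) led them, while Igf2bp3 (0.83, 0.0026) led the higher ones. At E18.5, 5 of 19 were higher in bladder and 6 lower. Between the stages 10 of 19 were higher and 4 lower in bladder (median 1.51), and 2 were higher and 8 lower in urethra (median -0.39). With the mesenchyme score 1 of those 10, the secreted binding protein gene Igfbp7 (2.14, adjusted p = 0.021), and all 4 lower ones still passed in bladder, and 2 and 7 did in urethra. Igf2bp1, Igf2bp2 and Igf2bp3, which encode RNA-binding proteins of fetal tissue that bind Igf2 mRNA, were lower at E18.5 in both tissues. Igf2bp3 stood at 116 ± 12.1 CPM in E18.5 bladder, 106 ± 15.3 in E18.5 urethra, 359.8 ± 69.1 in E14.5 bladder and 198 ± 12.9 in E14.5 urethra, with a stage difference of -1.63 in bladder (adjusted p = 1.32e-05) and -0.90 in urethra (0.00117). With the mesenchyme score all 3 were still lower at E18.5 in bladder (adjusted p 0.0416 for Igf2bp1, 0.0244 for Igf2bp2 and 0.0276 for Igf2bp3) and in urethra (0.000813, 0.0012 and 0.000935).

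Of the other genes named as cyclin-dependent kinase inhibitors, 6 were tested, among them Cdkn3, which encodes a phosphatase. In bladder 4 were higher at E18.5 than at E14.5 (median log2 fold change 0.99), Cdkn2c (1.67, adjusted p = 1.81e-05), Cdkn1b (1.22, 2.88e-05), Cdkn1a (2.03, 0.00123) and Cdkn2d (0.76, 0.00144), and with the mesenchyme score all but Cdkn2d (0.274) still passed. In urethra Cdkn1b (0.59, 0.00496), Cdkn1a (1.57, 0.00842) and Cdkn2b (1.71, 0.00864) were higher and Cdkn3 (-1.06, 0.0111) was lower, and all 4 passed with the score. Cdkn1b, which encodes p27, stood at 129 ± 13.7 CPM in E18.5 bladder and 55.7 ± 8.69 in E14.5 bladder, and at 80.4 ± 10.3 CPM in E18.5 urethra and 53.3 ± 5.99 in E14.5 urethra. Between the tissues at E18.5, Cdkn2c (1.59, adjusted p = 0.000677), Cdkn3 (2.05, 0.00233) and Cdkn1b (0.63, 0.00648) were higher in bladder and still passed with the score. Cdkn1a, which encodes p21, was lower in bladder, as Cdkn1c was, at 102 ± 24.9 CPM against 142 ± 9.07 CPM in urethra (-0.54, adjusted p = 0.0388). That difference missed the threshold when any 1 of the 6 libraries other than bladder replicate 2 was left out (adjusted p 0.0556 to 0.0979), and it stood at 0.18 with the score. At E14.5 Cdkn3 was higher in bladder (1.18, adjusted p = 0.00122).

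Of 18 genes tied to setting, keeping or removing imprints, with Tet1, Tet2 and Tet3 for removal, 16 were tested. In bladder 12 were lower and 1 higher at E18.5 than at E14.5, with 9 lower and 2 higher in urethra (median log2 fold changes -0.60 and -0.52). Tet3 was among the 12, and Tet2 among the 2. With the mesenchyme score 1 of the 12, Dnmt3a (-1.43, adjusted p = 0.0241), still passed as lower in bladder, and all 9 did in urethra. Dnmt1, the maintenance DNA methyltransferase gene, stood at 159 ± 16.4 CPM in E18.5 bladder and 309 ± 51.5 in E14.5 bladder (adjusted p = 0.000248), and at 139 ± 19.2 CPM in E18.5 urethra and 285 ± 30.6 in E14.5 urethra (0.000399). With the mesenchyme score the bladder value of Dnmt1 did not pass (-0.68, adjusted p = 0.208) and the urethral one did (-1.05, 0.000287). The histone methyltransferase gene Setdb1 was lower at E18.5 in bladder (-0.63, adjusted p = 8.85e-05) and in urethra (-0.64, 0.000248), and with the score it passed in urethra (0.000234) and not in bladder (-0.51, 0.124). Dnmt3l, which encodes a cofactor of the de novo methyltransferases, went the other way, higher at E18.5 in bladder (2.78, adjusted p = 0.00316, and 0.387 with the score) and in urethra (2.31, 0.0226). Dnmt3l levels were low, at 8.01 ± 0.636 CPM in E18.5 bladder and 1.15 ± 0.982 CPM in E14.5 bladder. In urethra they were 1.25 ± 0.391 CPM at E18.5 and 0.248 ± 0.179 CPM at E14.5, where the lowest library had 0 CPM. The urethral call was lost without E14.5 urethra replicate 4 (0.0546) or E18.5 urethra replicate 1 (0.0512) or 3 (0.065). Of 36 further imprinted genes, 1 was higher and 13 were lower in bladder than in urethra among 33 tested at E14.5, and 6 were higher and 6 lower among 32 at E18.5. Between the stages, 5 were higher and 5 lower in bladder, and 1 was higher and 6 were lower in urethra, among them the amino acid transporter gene Slc38a4 (4.58-fold lower, adjusted p = 0.000207). With the score none of the 10 calls in bladder remained, and all 7 in urethra did. For the interaction 8 of 33 were shifted toward bladder and 2 toward urethra, led by the creatine synthesis gene Gatm (2.59, adjusted p = 0.00281), and with the score none of the 10 passed (0.616 for Gatm). The counts of all lists stand beside the shares of all genes called given above, and the lists were not tested as sets.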

How the data were processed

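Poly(A) RNA libraries were made with a directional kit, per the labels' protocols. The design text counts 3 litters for the E18.5 libraries and 4 for the E14.5 ones, the extraction protocol 3 for all, and the libraries were taken as separate litters. HISAT2 2.2.1, SAMtools 1.9, bcl2fastq and the build GRCm38 are named in the submitters' processing notes. The authors deposited raw counts per gene symbol in 2 tables, 1 for each stage, joined here by symbol, so a batch between the tables and the stage cannot be told apart. The counting tool is not given in the sources used here. Totals of 21101269 to 36810672 counts make counting error small beside the spread between libraries.

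Counts were tested with edgeR 4.0.16 in R 4.3.3 (filterByExpr, trimmed mean of M values, quasi-likelihood F test, Benjamini-Hochberg over all genes tested, threshold 0.05). Tissues were compared within a stage, and stages and the interaction with all 14 libraries in 4 groups. Standard errors and log2 CPM (prior count 2) come from these fits. The fits were tested on simulated data. Alternatives were DESeq2 1.42.0 or its size factors, no filter or a filter of 1 CPM, all 14 libraries, the replicate number as a block, the mesenchyme score and leaving out each library. The members and lists were chosen with earlier results of these data known. All 10 members are named. Of each list and comparison the rule allowed up to 3 by adjusted p plus the strongest of the minority direction, or all where 5 or fewer passed; which of these to print was chosen after their values were seen, as were Igf2os, Zim1, Airn and Igf2bp1 to Igf2bp3 in bladder. The likeness search left out the members. Sequences are from RefSeq, and exons and overlaps from GENCODE M21.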

Additional observations from a re-analysis of the deposited data

Results flagged for a closer look

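In E14.5 urethra, replicate 3 stood far from the other 3 libraries for 2 of the 10 genes. For Dlk1 its 189 CPM lay above 96.4 to 100.3 CPM in the others, a gap of 0.958 of the range of the group. For Igf2r its 603 CPM lay above 298 to 343 CPM, a gap of 0.851. Both gaps exceed Dixon's 95% critical value for 4 libraries, which chance passes in about 1 of 20 groups. The 10 genes in the groups of 4 libraries gave 20 such groups. The same library had the highest summed mesenchyme list of its group (7569.8 CPM, against 3465 to 4599 CPM), and the part of this in the high values was not tested.

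The difference between bladder and urethra itself differed between E18.5 and E14.5 for 4 of the 10 genes by edgeR. The log2 interaction was 2.57 for Dlk1 (adjusted p = 0.0343), 1.58 for Plagl1 (0.0129), 1.35 for Igf2 (0.0171) and 1.14 for Peg3 (0.0219). For Dlk1 and Plagl1 the E18.5 bladder libraries stood above the other groups. For Igf2 the E14.5 urethral libraries stood above them, and for Peg3 the E18.5 urethral libraries stood below. With the mesenchyme score as a covariate none of the 4 passed, at -0.68 for Dlk1, 0.21 for Plagl1, 0.68 for Igf2 and 0.36 for Peg3.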

How the results depend on the processing

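Of 880 values of the 10 genes under 21 alternatives, 792 kept their direction and their side of the threshold. With the mesenchyme score, the genes called were 3866 between the tissues at E18.5, 4041 at E14.5, 581 between the stages in bladder and 55 for the interaction, and of the 10 genes 2, 1, 1 and 0 passed; in urethra the counts stayed within 1.5 times. The score also turned the sign of the E14.5 tissue difference of Dlk1 (0.66), Peg3 (0.07), Mest (0.64), Plagl1 (0.39) and Igf2r (0.25), of the E18.5 one of Dlk1 (-0.02), Mest (-0.73), Klf14 (-0.63), Igf1 (-0.48) and Cdkn1a (0.18), and of the bladder stage difference of Dlk1 (-0.20), Meg3 (-0.55), Mest (-2.18), Cdkn1c (-0.12), Plagl1 (-0.03), Igf2r (-0.21), Mirg (-0.70), Copg2 (0.20), Igfbp4 (-0.99) and Pappa2 (-1.44). It turned the interaction of Dlk1 (-0.68), Meg3 (-1.99), Mest (-1.37), Cdkn1c (-0.25), Grb10 (-0.05), Igf2r (-0.19), Rtl1 (-0.10), Nnat (-0.11) and Igfbp4 (-0.59). The cause was not tested. Leaving out each library left 4 to 7 of the 10 called at E18.5, 3 to 4 at E14.5, 4 to 7 in bladder and 4 to 5 in urethra between the stages, and 1 (without E18.5 bladder replicate 1) to 5 for the interaction, whose gene count ran from 2654 (without E18.5 urethra replicate 1) to 5697. Signs turned within these ranges for Plagl1 (-0.44 to 0.05) and Igf2r (-0.17 to 0.24) at E14.5, Peg3 in bladder (-0.32 to 0.02), Plagl1 (-0.46 to 0.00) and Igf2r (-0.16 to 0.26) in urethra, and the interactions of H19 (-0.05 to 0.24), Meg3 (-0.10 to 0.76) and Cdkn1c (-0.02 to 0.26). Same-numbered libraries of the tissues correlated at 0.138, -0.146 and -0.189 at E18.5 and 0.15, 0.131, 0.391 and -0.104 at E14.5. Differently numbered ones ran from -0.268 to 0.359 at E18.5 and from -0.392 to 0.262 at E14.5. These values do not settle whether same-numbered libraries share a litter, and the main tissue tests did not pair the libraries. The replicate number was also used as a block. For the stage comparisons it ran across the stages, where it joins different litters, and for the others within a stage. With it, 3 of the 10 rather than 5 were called between the stages in bladder, where Meg3 (adjusted p = 0.0575) and Grb10 (0.0517) missed the threshold. In urethra 4 were called. Between the tissues 5 were called at E18.5 (H19 lost, 0.107) and 4 at E14.5 (Peg3 gained, 0.0195), and 5 for the interaction (Mest gained, 0.0286). DESeq2 called Meg3 at E14.5 (0.0473) and in urethra (0.0322), and no filter called it at E18.5 (0.0122) and Igf2 in bladder (0.0413). With all 14 libraries in 1 fit, H19 (0.0892) and Mest (0.109) were lost at E18.5. Each group rests on 3 or 4 pooled litters.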
